A study of Mus musculus with 8 samples.

Results

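Kit, the receptor of stem cell factor, and the receptors of IL-3, GM-CSF, IL-4, IL-9 and IL-33 were followed in RNA of MC/9, a mouse mast cell line, and of the exosomes that it sheds. All probe sets annotated to 9 listed genes were taken, and 13 of the 45101 probe sets of the array met this rule. They stand for 7 of the 9 genes, out of 19324 gene symbols on the array, namely Kit, Il3ra, Csf2rb, Csf2rb2, Csf2ra, Il4ra and Il9r. No probe set is listed for Il2rg or Il1rl1 in the annotation used, and these 2 genes were not analysed here. Of the 13 probe sets, 12 carry a single gene symbol and 1 is annotated to both Csf2rb and Csf2rb2. There were 4 arrays of exosome RNA and 4 arrays of RNA from the MC/9 cells themselves, an established line grown without any treatment that differs between the groups. The medium held 10% fetal bovine serum and 10% of a T cell culture supplement from rat, per the labels' protocols. Exosomes were pelleted from the medium by ultracentrifugation, after a spin at 23000 g and filtration at 0.22 µm had removed debris. The labels call the replicates biological but name no separate cultures, so the p-values cover the spread of these samples, which may be technical.

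Mast cells depend on Kit, a receptor tyrosine kinase, for survival and growth, and mouse mast cells are also grown on IL-3. The IL-3 receptor joins a ligand-specific alpha chain, Il3ra, to a beta chain. The mouse has a pair of such beta chains. Csf2rb is the common chain, shared with the receptors of GM-CSF and IL-5, and Csf2rb2 serves IL-3 alone. Csf2ra is the alpha chain of the GM-CSF receptor, Il4ra binds IL-4 and also takes part in the IL-13 receptor, and Il9r binds IL-9. None of these cytokine receptor chains has kinase activity of its own, and they signal through JAK kinases and STAT factors.

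The promoter windows of 4 of the genes are shown: those of Csf2rb2 and Il9r, which hold matches of the motifs searched, and those of Kit and Csf2ra as examples of the windows that hold none. The sequences are from RefSeq on GRCm38.p6 and run 5′ to 3′ from 250 bases before the annotated start to 50 after it. RefSeq windows were found for 6 of the 7 genes with probe sets, all but Csf2rb. Capitals mark matches, on either strand, of AGATAA (a word bound by GATA factors), of the related word TGATAA, or of TTCNNNGAA (a word bound by STAT factors, the same on both strands).
Kit, chr5:75574737-75575036, plus strand: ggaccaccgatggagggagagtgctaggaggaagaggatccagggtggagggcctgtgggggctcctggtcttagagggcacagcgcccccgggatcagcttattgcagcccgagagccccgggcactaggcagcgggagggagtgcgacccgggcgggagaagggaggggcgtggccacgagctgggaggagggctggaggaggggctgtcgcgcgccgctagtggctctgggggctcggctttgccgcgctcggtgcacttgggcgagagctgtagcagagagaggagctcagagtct
Csf2ra, chr19:61228369-61228668, minus strand: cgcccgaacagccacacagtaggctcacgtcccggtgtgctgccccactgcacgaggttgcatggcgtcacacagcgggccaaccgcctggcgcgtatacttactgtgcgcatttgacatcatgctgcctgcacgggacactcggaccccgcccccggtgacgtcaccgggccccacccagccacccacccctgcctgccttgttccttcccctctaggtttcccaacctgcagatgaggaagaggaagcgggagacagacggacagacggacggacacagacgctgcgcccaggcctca
Csf2rb2, chr15:78305672-78305971, minus strand: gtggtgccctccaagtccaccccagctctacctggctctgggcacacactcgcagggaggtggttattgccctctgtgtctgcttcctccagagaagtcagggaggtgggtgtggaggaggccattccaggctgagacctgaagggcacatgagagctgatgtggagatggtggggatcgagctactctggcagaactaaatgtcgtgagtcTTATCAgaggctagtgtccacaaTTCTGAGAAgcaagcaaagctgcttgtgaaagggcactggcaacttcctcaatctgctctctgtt
Il9r, chr11:32200230-32200529, minus strand: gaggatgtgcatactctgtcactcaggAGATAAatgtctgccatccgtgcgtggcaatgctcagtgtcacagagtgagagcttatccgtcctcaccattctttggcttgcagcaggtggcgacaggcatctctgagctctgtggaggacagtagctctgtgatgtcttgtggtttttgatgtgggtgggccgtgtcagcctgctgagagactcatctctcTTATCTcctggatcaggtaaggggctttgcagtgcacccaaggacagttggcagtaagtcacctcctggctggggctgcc
The Csf2rb2 window holds 1 match of TGATAA, at position -38 from the start, and 1 of TTCNNNGAA, at position -15. The Il9r window holds 2 matches of AGATAA, at -223 and -30. The windows of Kit, Csf2ra, Il3ra and Il4ra hold none of these words. Of 32851 windows of 300 bases in the mouse table, 11.2% hold AGATAA, 9.05% hold TGATAA and 8.30% hold TTCNNNGAA. A match is a description of the letters and not a site.

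Signals are the deposited intensities, which were scaled to a 2% trimmed mean of 100 on each array. A probe set was called detected on an array where it exceeded the detection floor, the 95th percentile of 148 probe sets of sensory receptors and other genes not expected in these cells. The floor averaged 278 ± 29.7 over the exosome arrays and 13.2 ± 2.55 over the cell arrays (SD, n = 4), so a signal that is clear in cells can lie under the floor in exosomes. Spiked hybridisation controls were higher by 4.51 on the log2 scale on exosome arrays. The share of probe sets above the floor was 4.02% to 8.47% on exosome arrays and 45.1% to 50.3% on cell arrays. The hybridisation dates of the headers split the arrays, so that replicates 1 and 2 of both groups form batch 1 and replicates 3 and 4 form batch 2. All 14 probe sets of the mast cell markers, 2 of them of Kit itself, were detected on every cell array. Their summed signal was 35820 to 40214 on cell arrays and 1679 to 2517 on exosome arrays, where 9 of the 14 were detected nowhere. Of 9 T cell probe sets, none was detected on all 4 cell arrays and 6 on none of them, among them Cd3e and Cd3d. None of these 9 passed the floor on any exosome array, where their summed signal was 461 to 803 against 34.6 to 64.0 in cells. This excess was not particular to T cell markers. Summed signals of B cell, macrophage, erythroid, epithelium and hepatocyte markers were also higher on every exosome array than on any cell array. For B cell markers they were 357 to 453 against 6.03 to 13.4. The part of RNA from the supplement in the results was not tested.

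The receptor probe sets were mostly above the floor in cells and mostly under it in exosomes, as were most probe sets of the array in exosomes. In such bulk RNA, fewer vesicles with a transcript and less of it per vesicle cannot be told apart. In cells 12, 13, 12 and 12 of the 13 probe sets were above the floor on replicates 1 to 4, and in exosomes 2, 2, 1 and 1. The mean difference was -10.75 probe sets. It is given without a test, since the floor itself differs between the groups and far fewer of all probe sets pass it on exosome arrays. Of the 13 probe sets, 11 were detected on all cell arrays, against 40.1% of all probe sets. On exosome arrays 9 were detected nowhere, against 85.6% of all, and 4 on at least 1 array, against 14.4% of all. None was detected on all 4 of them, against 1.49% of all.

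**Figure D1:**
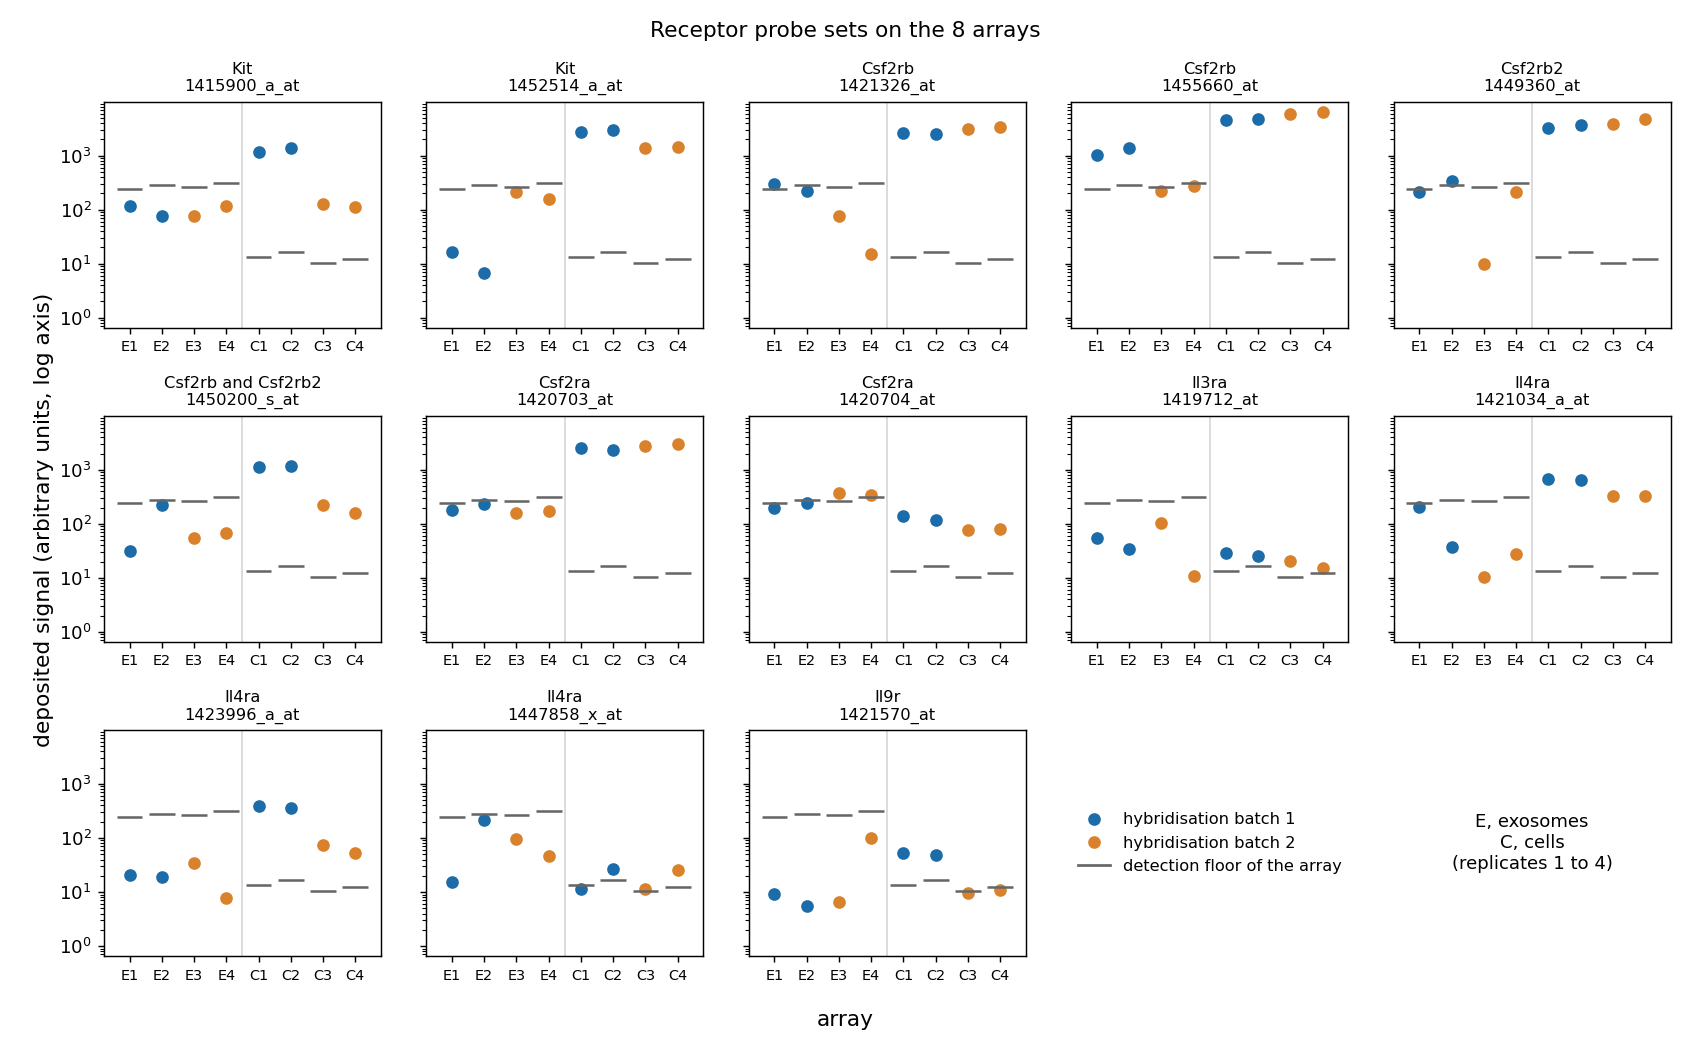
Deposited signal of each receptor probe set on the 4 exosome arrays (E) and 4 cell arrays (C), on a log axis, coloured by hybridisation batch, with the detection floor of each array as a grey bar. The floor lies near 278 on exosome arrays and near 13.2 on cell arrays, and Csf2rb 1455660_at is the receptor probe set that stands clearly above it in exosomes, on replicates 1 and 2.

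Compared with limma across 20214 tested probe sets, 9 of the 12 tested receptor probe sets were lower in exosomes, 1 was higher and 2 did not pass. All 12 entered the test through the cell arrays, since none was above the floor on at least 3 exosome arrays. Of the 20214, 19814 were above it on at least 3 cell arrays. The counts and medians here thus describe probe sets chosen mainly by their cell signal. Across the array 37.5% of tested probe sets were lower and 17.9% higher, 55.5% in all. The median log2 difference, exosomes minus cells, was -3.05 over the 12 receptor probe sets and -0.69 over all tested probe sets. In 7 of the 12, every exosome signal lay under every cell signal, against 37.2% of all tested probe sets. These directions hold for the deposited scaling, and the share of lower among all calls was 67.7% with it. The split was 7589 lower and 3621 higher. It became 9651 and 1498 with quantile normalization, 19041 and 258 with scaling to the hybridisation controls, 16038 and 298 with the poly-A controls, 5270 and 4980 with scaling to the probe sets detected on all 8 arrays, and 10887 and 1605 after the background median was subtracted. The median of all tested probe sets moved with these to -1.51, -4.72, -3.85, -0.02 and -2.49. The receptors gave 9 lower and 1 higher, 12 and 0, 10 and 0, 7 and 2, and 9 and 0 in the same order.

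**Figure D2:**
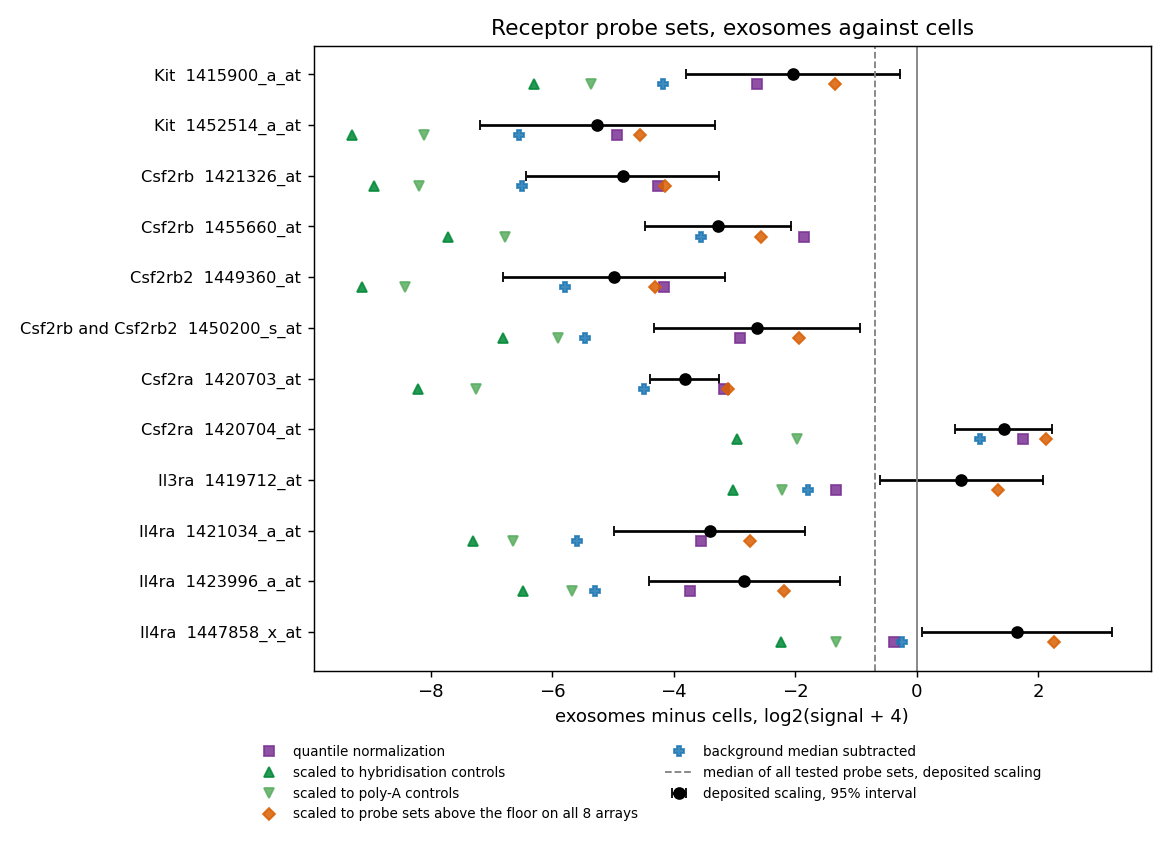
Difference of each tested receptor probe set, exosomes minus cells on the log2(signal + 4) scale, with its 95% interval on the deposited scaling (black) and its value under 5 other scalings (coloured symbols). The dashed line is the median of all tested probe sets, -0.69, and 9 probe sets stay to the left of 0 under every scaling shown, while Csf2ra 1420704_at, Il3ra 1419712_at and Il4ra 1447858_x_at cross it.

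Kit was read by 2 probe sets. On 1452514_a_at the cell signals were 2735, 2924, 1386 and 1473 on replicates 1 to 4, and the exosome signals were 16.5, 6.64, 214 and 159. All cell arrays were above all exosome arrays, and replicates 1 and 2 were the highest in cells and the lowest in exosomes. It was detected on none of the exosome arrays, its signal there was at least 7.26-fold lower, and the log2 difference was -5.26 ± 0.88 (SE; limma, adjusted p = 0.000512). That difference was -7.58 within batch 1 and -2.93 within batch 2, both resting on exosome signals under the floor. With every signal raised to at least the floor it was -2.84. On 1415900_a_at the cell signals were 1158, 1408, 129 and 112, and the exosome signals were 116, 75.5, 75.5 and 115. Here the groups overlapped, because the cell arrays of batch 2 lay close to the exosome arrays. The log2 difference was -2.03 ± 0.79 (SE; limma, adjusted p = 0.049), with -3.72 within batch 1 and -0.35 within batch 2, where it did not pass (limma, adjusted p = 0.48). This call was lost when any 1 exosome array was left out, and also without cell replicate 1 or cell replicate 2 (differences of -1.42 to -2.13, limma, adjusted p of 0.0758 to 0.139). It was lost as well with scaling to the probe sets detected on all 8 arrays, where the difference was -1.34. With every signal raised to at least the floor the difference was -0.50, and it also missed the threshold narrowly with a floor at the 99th percentile, a pseudocount of 1 or no trend in the variance prior (limma, adjusted p of 0.0508, 0.0516 and 0.0576).

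Among the beta chains, each probe set of a single gene was detected on at least 1 exosome array. On Csf2rb 1455660_at the cell signals were 4644, 4731, 5869 and 6406, and the exosome signals were 1045, 1402, 226 and 277. The groups did not overlap, and the 2 exosome arrays of batch 1 were well above their floors of 247 and 282 while those of batch 2 were under theirs. The log2 difference was -3.27 ± 0.54 (SE; limma, adjusted p = 0.000501), which was -1.95 within batch 1 and -4.59 within batch 2. With the floor moved to the 99th percentile it was still detected, on the same 2 arrays, and it was the only receptor probe set detected in exosomes at that floor. The other Csf2rb probe set, 1421326_at, read 2626, 2547, 3127 and 3425 in cells and 305, 221, 76.8 and 15.2 in exosomes, where replicate 1 alone passed the floor. Again batch 1 was the higher of the batches in exosomes and the lower in cells. The difference was -4.84 ± 0.72 (SE; limma, adjusted p = 0.000245), and -3.30 within batch 1 and -6.38 within batch 2. With every signal raised to at least the floor, the Csf2rb probe sets still fell by 3.16 and by 3.30.

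Csf2rb2, the beta chain for IL-3 alone, was read by 1449360_at with cell signals of 3293, 3644, 3828 and 4751 and exosome signals of 212, 338, 10.0 and 208. Exosome replicate 2 passed its floor, replicate 3 stood apart at the low end, and the groups did not overlap. The difference was -4.98 ± 0.83 (SE; limma, adjusted p = 0.000489), and it was -3.94 without exosome replicate 3. With every signal raised to at least the floor, Csf2rb2 fell by 3.71. The 1450200_s_at probe set, annotated to both beta chain genes, cannot be assigned to either of them. Its cell signals were 1143, 1200, 220 and 159 and its exosome signals 31.7, 225, 53.6 and 68.5, so that the groups overlapped. Its difference was -2.63 ± 0.77 (SE; limma, adjusted p = 0.0136) and did not pass with scaling to the probe sets detected on all 8 arrays (-1.93; limma, adjusted p = 0.0652), nor with every signal raised to at least the floor (-0.75; limma, adjusted p = 0.25).

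The alpha chains and the remaining receptors differed between probe sets. Csf2ra, the GM-CSF receptor alpha chain, had 2483, 2307, 2784 and 3049 in cells on 1420703_at and 177, 232, 159 and 173 in exosomes. No exosome array passed the floor, the groups were far apart, and the signal was at least 9.53-fold lower in exosomes. The difference of -3.82 ± 0.25 (SE; limma, adjusted p = 2.2e-06) had the smallest SE among the 12 receptor probe sets. The second Csf2ra probe set, 1420704_at, went the other way, with 138, 116, 78.3 and 80.0 in cells and 195, 241, 371 and 338 in exosomes. The 2 exosome arrays of batch 2 passed the floor, and every exosome signal lay above every cell signal. The difference was 1.43 ± 0.36 (SE; limma, adjusted p = 0.00642). It was 0.76 within batch 1, where it did not pass (limma, adjusted p = 0.11), and 2.11 within batch 2. It turned to -2.95 with scaling to the hybridisation controls, where it passed as lower (limma, adjusted p = 1.89e-05). With the poly-A controls it turned to -1.98 and did not pass (limma, adjusted p = 0.0721). It also did not pass with the background median subtracted (1.05; limma, adjusted p = 0.052). The cell signals of this probe set lay under the exosome floor, so a like signal would not have been detected on an exosome array.

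Il3ra, the IL-3 receptor alpha chain, was dim in cells. Its 1419712_at signals there were 29.0, 25.3, 20.2 and 15.5, above the floor of each cell array but well under the exosome floor. In exosomes they were 54.6, 33.5, 105 and 10.8, all under the floor. The groups overlapped, and the difference of 0.74, with a 95% interval from -0.61 to 2.08, did not pass (limma, adjusted p = 0.33). Its direction turned with 4 of the 5 other scalings, to between -1.33 and -3.02. It passed as lower with the hybridisation controls (-3.02; limma, adjusted p = 0.000144) and the poly-A controls (-2.21; limma, adjusted p = 0.0213). With every signal raised to at least the floor, which lifts exosome values by construction, it passed as higher (3.43; limma, adjusted p = 4.28e-08).

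Il4ra was read by 3 probe sets that did not move alike. On 1421034_a_at the cell signals were 677, 638, 332 and 334 and the exosome signals 206, 37.6, 10.4 and 27.1. The groups did not overlap, no exosome array passed the floor, and the signal was at least 1.69-fold lower in exosomes (difference of -3.41 ± 0.71, SE; limma, adjusted p = 0.00213). The difference within batch 1, -2.82, missed the threshold (limma, adjusted p = 0.0596), and within batch 2 it was -3.99. On 1423996_a_at the cell signals were 398, 355, 74.9 and 53.3 and the exosome signals 20.9, 18.7, 34.1 and 7.66. The difference was -2.83 ± 0.71 (SE; limma, adjusted p = 0.00606), and batch 1 alone went from a mean of 377 in cells to 19.8 in exosomes. Within batch 2 the difference was -1.67 and missed the threshold (limma, adjusted p = 0.12). With every signal raised to at least the floor the difference turned to 0.81 and did not pass (limma, adjusted p = 0.198). No fold is given, since the mean cell signal of 220 lay under the mean exosome floor. On 1447858_x_at the cell signals were 11.2, 26.9, 11.5 and 25.6, close to the floor, and the exosome signals 15.1, 214, 96.2 and 46.9. The groups overlapped and the difference of 1.66 did not pass (limma, adjusted p = 0.0689). Without exosome replicate 1 it was 2.26 and passed (limma, adjusted p = 0.00928), and without exosome replicate 2 it was 1.09 (limma, adjusted p = 0.163). It turned negative with 4 of the 5 other scalings, and passed as lower only with the hybridisation controls (-2.22; limma, adjusted p = 0.00479). With scaling to the probe sets detected on all 8 arrays it passed as higher (2.26; limma, adjusted p = 0.0242).

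Il9r, read by 1421570_at, was not tested. Its cell signals were 52.7, 47.5, 9.81 and 11.1, above the floor on the 2 arrays of batch 1 and under it on those of batch 2. In exosomes it read 9.20, 5.42, 6.58 and 101, under the floor on all arrays.

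The cell arrays alone showed that several receptor signals moved with the hybridisation batch, and by amounts that depended on the probe set. A limma fit of batch 2 against batch 1 over the 4 cell arrays covered 19814 probe sets above the floor on at least 3 of them. Of the 12 receptor probe sets in it, 6 were lower in batch 2 and 4 higher, against 23.9% lower and 15.4% higher of all, 39.3% together. In 7 both batch 2 signals lay under both batch 1 signals and in 4 over them, against 42.2% and 28.9% of all. The split of 4726 lower and 3054 higher over the array became 3213 and 3654 with quantile normalization, where 5 receptor probe sets were lower and none higher. It became 15010 and 187 with scaling to the hybridisation controls. Separate cultures are not named in the labels, so batch and culture cannot be told apart. Kit 1415900_a_at was lower in batch 2 by 3.37 ± 0.13 on the log2 scale (SE; limma, adjusted p = 5.92e-07), from a mean of 1283 to 120. Kit 1452514_a_at fell by 0.98 ± 0.08 (SE; limma, adjusted p = 3.17e-05), from 2829 to 1429. Within an array, the ratio of the first Kit probe set to the second was 0.423 and 0.482 in batch 1 and 0.0931 and 0.0759 in batch 2, so the 2 probe sets changed unequally.

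**Figure D3:**
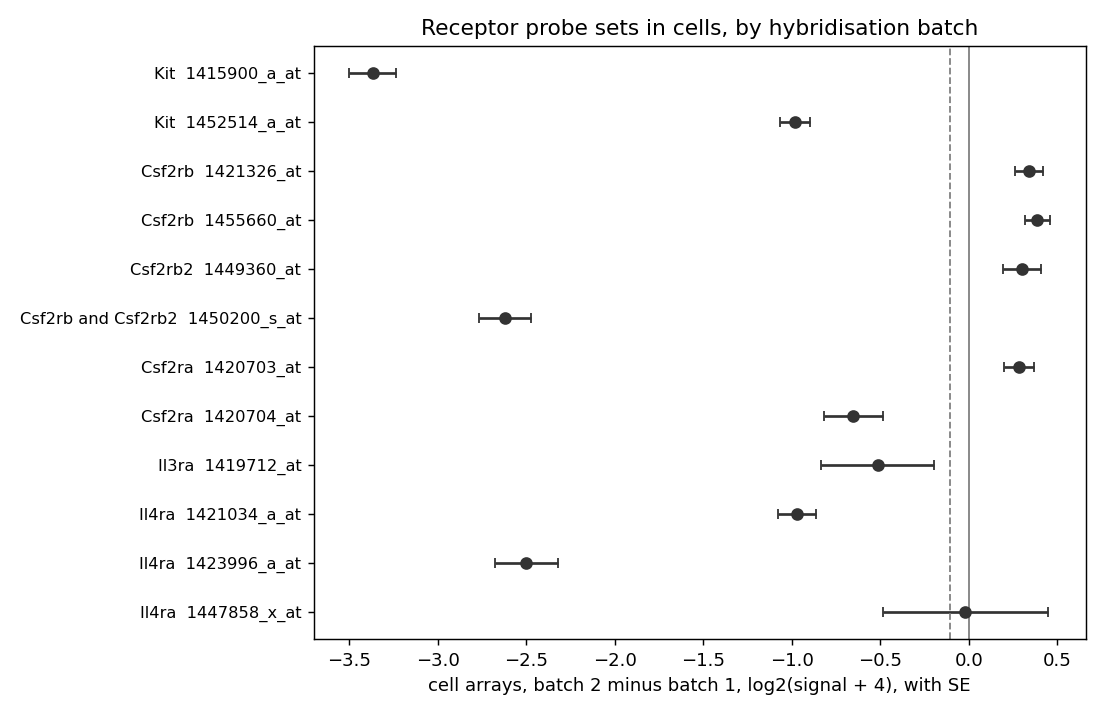
Difference between hybridisation batches over the 4 cell arrays, batch 2 minus batch 1 on the log2(signal + 4) scale with its SE, for the 12 receptor probe sets in the fit. The dashed line is the median of all 19814 probe sets, -0.11, and Kit 1415900_a_at, the shared beta chain probe set and Il4ra 1423996_a_at lie farthest to the left.

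The same unequal pattern appeared in the beta chains, Il4ra and Csf2ra. The 1450200_s_at probe set, annotated to both beta chain genes, fell by 2.62 ± 0.15 (SE; limma, adjusted p = 4.05e-06), from 1172 to 189. The probe sets of Csf2rb or Csf2rb2 alone were instead higher in batch 2 by 0.30 to 0.39, as was Csf2ra 1420703_at by 0.28. These small rises did not pass without a trend in the variance prior. They were lost with quantile normalization between the cell arrays, where they lay between -0.11 and 0.07, and turned to between -0.33 and -0.43 with scaling to the hybridisation controls. The ratio of the shared probe set to that of Csf2rb2 was 0.347 and 0.329 in batch 1 and 0.0574 and 0.0334 in batch 2. The ratio of the Csf2rb probe sets, 1421326_at over 1455660_at, stayed between 0.533 and 0.565 on all 4 cell arrays. That of Il4ra 1423996_a_at over 1421034_a_at was 0.589 and 0.556 in batch 1 and 0.226 and 0.159 in batch 2. Il4ra 1423996_a_at fell by 2.50 ± 0.18 (SE; limma, adjusted p = 1.24e-05). Il4ra 1421034_a_at fell by 0.97 ± 0.11 (SE; limma, adjusted p = 0.000112). Csf2ra 1420704_at fell by 0.65 ± 0.17 (SE; limma, adjusted p = 0.0119). Its ratio to Csf2ra 1420703_at was 0.0556 and 0.0503 in batch 1 and 0.0281 and 0.0262 in batch 2. Of the 12, 3 fell by over 1 and none rose by over 1, against 13.7% and 1.39% of all probe sets. The falls of these 3 and of the second Kit and Il4ra probe sets passed under each of the 4 alternatives run, and that of Csf2ra 1420704_at under 3 of them. Beside this, the ratio of 3′ to 5′ control signals of Actb was at most 1.48 in batch 1 and 2.01 to 2.39 in batch 2, and that of Gapdh 0.811 to 0.853 and 0.979 to 1.20. In exosomes the Actb ratio was 2.32 to 10.6 and the Gapdh ratio 2.67 to 4.15. The exosome Actb 5′ signals of replicates 2 to 4 (126, 33.3 and 31.1) lay under the floor, as did the 3′ signal of replicate 3 (140). The dimmer pyruvate carboxylase controls gave 2.59 to 9.76 in cells and 0.264 to 4.88 in exosomes, and those of the transferrin receptor 3.39 to 7.55 and 0.708 to 8.35. All exosome signals of both these controls lay under the floor, as did their 5′ signals on the cell arrays of batch 2. The part of these control ratios in the receptor differences was not tested.

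The other cytokine receptor chains were called at shares close to those of the array. Of 38 listed genes, 36 had a probe set and 28 probe sets of 19 genes were tested. Of these, 11 were lower in exosomes and 4 higher, against 37.5% and 17.9% of all tested probe sets, and 13 did not pass, with a median log2 difference of -0.32 against -0.69 over all tested probe sets. None was detected on all exosome arrays, and 25 of the 28 on none of them, against 79.7% of all tested probe sets. Il5ra, the IL-5 receptor alpha chain that pairs with Csf2rb, gave signals of 1469 ± 161 in cells against 86.3 ± 57.2 in exosomes (SD, n = 4) on 1421620_at and was at least 5.28-fold lower (limma, adjusted p = 2.47e-05). Tgfbr2, a TGF-beta receptor chain, had 898 ± 49.6 and 65.5 ± 48.0 (SD, n = 4) on 1426397_at and was at least 3.24-fold lower (limma, adjusted p = 0.000391). The other tested Tgfbr2 probe set, 1425444_a_at, did not pass (-0.08; limma, adjusted p = 0.94). The highest differences were those of Csf1r 1423593_a_at, the receptor of macrophage colony-stimulating factor, at 2.72, and of Il1rap 1421843_at, the partner chain of the IL-33 receptor, at 2.66 (limma, adjusted p = 0.000237 and 0.000576). Both rest on exosome signals under the floor. Both turned to negative values with scaling to the hybridisation controls (-1.48 and -1.55) and to the poly-A controls (-0.58 and -0.61). The other tested Il1rap probe set, 1421844_at, did not pass (0.85; limma, adjusted p = 0.0891).

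Apart from Il4, the ligands were mostly under the floor in the cells. All 8 ligand genes had probe sets, 11 in all, and 9 of these were detected on no cell array, including all 4 of Kitl, the gene of stem cell factor, and those of Il3, Csf2, Il5, Il9 and Il33. Il13 1420802_at was detected on 2 cell arrays. Only 1 of the 11, that of Il4, was detected on all 4 cell arrays, against 40.1% of all probe sets. Il4 alone was tested, with 116 ± 15.7 in cells against 120 ± 92.4 in exosomes (SD, n = 4) on 1449864_at, and a difference of -0.46 that did not pass (limma, adjusted p = 0.60).

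Among the signalling partners, 58 probe sets of 26 genes were tested, of which 27 were lower in exosomes, 6 higher and 25 did not pass, with a median difference of -1.06. The shares over all tested probe sets were 37.5% lower and 17.9% higher. Of the 58, 53 were detected on no exosome array, against 79.7% of all tested. Jak1, a kinase that binds several of these chains, gave signals of 2158 ± 175 in cells against 47.0 ± 23.6 in exosomes (SD, n = 4) on 1433805_at and was at least 7.77-fold lower (limma, adjusted p = 3.06e-06). Jak1 1433803_at was also lower (-4.89), while Jak1 1433804_at did not pass (0.27; limma, adjusted p = 0.71). Gab2, an adaptor that carries Kit signals to PI3 kinase, had 1012 ± 117 and 24.8 ± 9.75 (SD, n = 4) on 1419829_a_at and was at least 3.63-fold lower (limma, adjusted p = 2.6e-06). The other tested Gab2 probe sets, 1420785_at and 1439786_at, did not pass (1.41 and -0.83; limma, adjusted p = 0.093 and 0.23). Pik3cd, a catalytic subunit of PI3 kinase, had the 2 highest differences. Its 1443798_at was detected on every exosome array, at 2067, 1343, 905 and 1165, against 102, 110, 67.0 and 82.1 in cells. The difference was 3.82 ± 0.34 (SE; limma, adjusted p = 8.21e-06), but -0.61 with scaling to the hybridisation controls and 0.36 with the poly-A controls, neither of which passed. Pik3cd 1446770_at had a difference of 2.65 on exosome signals under the floor, which turned to -1.48 and -0.58 with the same scalings. Of the 3 other tested Pik3cd probe sets, 1453281_at and 1422992_s_at were lower in exosomes, with differences of -2.08 and -2.65, and 1422991_at did not pass.

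**Figure D4:**
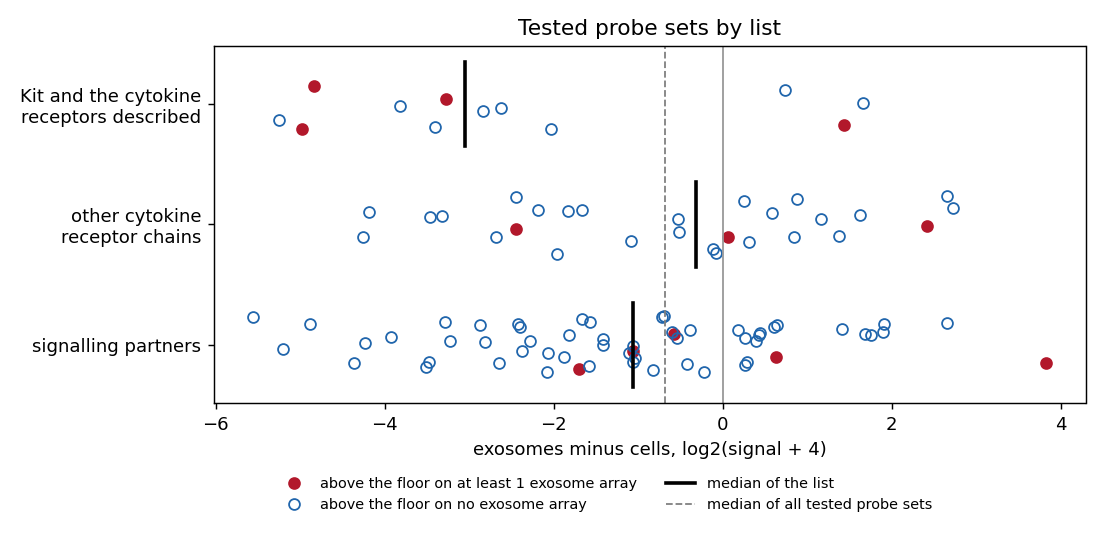
Difference of every tested probe set, exosomes minus cells on the log2(signal + 4) scale, for the receptors described and for the lists of other receptor chains and signalling partners, with the median of each list (black bar) and of all tested probe sets (dashed line, -0.69). Filled points passed the floor on at least 1 exosome array. The medians are -3.05, -0.32 and -1.06.

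The genes whose pattern was most like that of Kit 1452514_a_at over the 8 arrays were Fundc1, Pcf11 and Tmem167, with Pearson's r of 0.998, 0.996 and 0.994 on the log2 scale. Over the 4 cell arrays they were Fam102b, Efcab14 and Crk, with r of 0.99998, 0.99994 and 0.99993. These are descriptions over arrays that share group and batch, and of 17479 named probe sets compared, 403 had r over 0.95 on the 8 arrays and 2856 on the 4 cell arrays.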

How the data were processed

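RNA of MC/9 exosomes and of MC/9 cells was hybridised to 8 Affymetrix Mouse430_2 arrays (per the file headers), 4 per group, from 5 µg of total RNA each (per the labels' protocols). One linear intensity value for each probe set and array was deposited by the authors. The submitters' processing notes name the program GCOS, and how probes were summarised is not given in the sources used here. Each array has a 2% trimmed mean of 100, a scaling that raises background on arrays with little signal. The number of arrays limits the precision.

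Gene symbols are those of the platform annotation, where 34945 probe sets have 1 symbol, 932 several and 9160 none, with 64 controls beside. A probe set was tested if above the floor (95th percentile of 148 background probe sets) on at least 3 arrays of a group, which kept 20214. A probe set that passed through 1 group had to be bright there, so counts over those tested describe them only. The scale is log2(signal + 4), on which dim probe sets change less. The test was limma (version 3.58.1, R 4.3.3; lmFit, eBayes with a trend, Benjamini-Hochberg over all tested probe sets, threshold 0.05). It was tried on data simulated with the spread of the cell arrays, which does not cover that of the exosome arrays. A bound ("at least N-fold") is the geometric mean in cells over that of the higher of floor and signal in exosomes, on the deposited scaling. It is taken over the 4 arrays of each group and need not hold within a batch or for single arrays. The exact permutation test planned for the number of detected receptor probe sets is not reported, since the floor differs between the groups.

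The members, the lists and the tests were chosen with earlier results of these data known. Every receptor probe set is named. Of each further list, the 2 lowest and 2 highest differences and any probe set above the floor on all exosome arrays are named, and for Kit the 3 most similar genes. Ligand probe sets other than that of Il4 and the markers of T cells and further cell types were named after their values were seen. So were the other probe sets of Pik3cd, Jak1, Gab2, Tgfbr2 and Il1rap. Alternatives varied the filter, floor, pseudocount, scaling, variance prior, blocks, batches and arrays. Same-numbered arrays of the groups did not deviate together (r of -0.07 to 0.01 across probe sets). This cannot decide whether the numbers pair the samples, since 79.7% of tested probe sets never passed the floor in exosomes.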

Additional observations from a re-analysis of the deposited data

Results flagged for a closer look

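Of 26 groups of 4 arrays (13 receptor probe sets in exosomes and in cells), 2 held an array whose gap to its nearest neighbour took up nearly the whole range on the log2 scale, beyond Dixon's critical value for 4 samples. Chance flags about 1 in 20 such groups. For Il9r 1421570_at it was exosome replicate 4, with a gap of 0.86 of the range and a signal of 101 against 5.42 to 9.20 on the other exosome arrays. For Csf2rb2 1449360_at it was exosome replicate 3, with a gap of 0.851 and a signal of 10.0 against 208 to 338. All of these signals except the highest of Csf2rb2 lie under the exosome floor.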

How the results depend on the processing

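The count of 9 receptor probe sets lower in exosomes was 6 to 12 over all alternatives, and 8 to 9 with each array left out. Tested without a filter, 34672 probe sets were called, against 11210, and the balance turned to 8085 lower and 26587 higher (median 2.00). With every signal raised to at least the floor it was 17923, with 4239 lower and 13684 higher (median 1.39), and with scaling to the hybridisation controls 19299, while leaving out single arrays gave 9574 to 11461. Setting signals to the floor lifts exosome values by construction, since their floor is higher. Lower and higher calls then numbered 5 and 20 among other receptor chains, 15 and 32 among signalling partners and 6 and 3 among the receptors, against 11 and 4, 27 and 6, and 9 and 1, and the difference of Il4ra 1423996_a_at became 0.81. Lower calls were 28, 1 and 57 for other receptor chains, ligands and partners with the hybridisation controls and 22, 1 and 51 with the poly-A controls, where the ligand count had been 0. Within batch 1 they were 7 for other receptor chains. Taking 1 probe set per gene, which lowers the number tested, gave 17 or 16 lower of 26 genes for the partners, against 27 of 58 probe sets. Higher calls for the partners were then 0 or 2, against 6. Left-out arrays gave 10 to 12 and 24 to 27 for these lists and 0 for the ligands. The number of detected receptor probe sets differed by -10.5 within batch 1 and by -11 within batch 2, and by -10.9 to -10.5 with an array left out. Il3ra turned to -1.33 (quantile normalization), -3.02 (hybridisation controls), -2.21 (poly-A controls) and -1.78 (background median subtracted). Il4ra 1447858_x_at turned to -0.36, -2.22, -1.33 and -0.24 in the same order. Csf2ra 1420704_at turned to -2.95 and -1.98 with the spiked controls. For batch 2 against batch 1 in cells, 10 receptor calls became 5 with quantile normalization and 6 without a trend in the variance prior. With quantile normalization Il3ra turned to 0.081, Csf2ra 1420703_at to -0.11, Csf2rb 1421326_at to -0.030, Il4ra 1447858_x_at to 0.54 and Csf2rb2 to -0.11. With the hybridisation controls Csf2ra 1420703_at turned to -0.43, Csf2rb 1421326_at to -0.38, Csf2rb2 to -0.42 and Csf2rb 1455660_at to -0.33. The cause was not tested for any of these. With the replicate block, 10771 probe sets were called and the receptors gave 9 lower and 1 higher, so it changed no count of receptor calls. The exosome floor limits every level under about 278.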

Other observations

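Unequal shifts between probe sets of a gene also appeared on the cell arrays among the signalling partners (Jak1, Gab2) and the other receptor chains (Tgfbr2), in probe sets chosen after their values were seen. Jak1 1433804_at was lower in batch 2 by 1.95 on the log2 scale (a difference of -1.95), with cell signals of 168, 198, 39.4 and 49.4, while Jak1 1433803_at was higher by 0.60 and Jak1 1433805_at differed by 0.20 (limma over cell arrays, adjusted p = 0.073 for the last). Tgfbr2 1425444_a_at had 77.1, 110, 21.8 and 12.2 in cells, a difference of -2.23, while Tgfbr2 1426397_at had 895, 867, 860 and 968, a difference of 0.05. Gab2 1420785_at had a difference of -1.82 and Gab2 1419829_a_at of -0.23.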
